A study of Mus musculus with 7 samples.

Results

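The transcription factors that carry the signal of the circadian clock to its output genes were followed in ATAC-seq data of mouse liver. Their 7 genes were Dbp, Tef, Hlf, Nfil3, Bhlhe40, Bhlhe41 and Ciart. A region of accessible chromatin was taken as a member when it overlapped the body of one of these genes or the 10 kb on either side of it, with gene models of GENCODE M21 on GRCm38. This held for 33 of the 55680 regions in the data, with 4 at Dbp, 6 at Tef, 9 at Hlf, 4 at Nfil3, 2 at Bhlhe40, 4 at Bhlhe41 and 4 at Ciart.

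The study asked how chromatin accessibility of the liver changes with age. It compared 3 liver samples of young mice, aged 3 months, with 4 of aged mice, aged 18 months. All were untreated, healthy male mice of the C57BL/6N strain, with no altered allele and free access to a standard diet. In ATAC-seq a transposase inserts adapters where DNA is exposed, so that the number of reads in a region reflects how open it is. The sample descriptions trace the 4 aged samples to 3 animals, 1 of which gave 2 lobules, without saying which samples these are, while the methods of the study count each as a biological replicate. The p-values may therefore measure in part the spread between pieces of 1 liver. The time of day at which the livers were taken is not given in the sources used here.

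The molecular clock of each cell is driven by CLOCK and BMAL1, which bind E-box sequences and switch on genes that include their own inhibitors. DBP, TEF and HLF form the PAR bZIP family, which activates genes through the D-box. In the liver their targets include enzymes of drug and bile acid metabolism. NFIL3, also known as E4BP4, binds the same D-box and represses, and its own gene is under control of the REV-ERB and ROR receptors through the RORE. BHLHE40 and BHLHE41, also known as DEC1 and DEC2, bind E-boxes as repressors, and CIART, also known as CHRONO, represses CLOCK and BMAL1. Levels of most of these factors in the liver cycle strongly over the day.

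These binding sequences were searched on both strands of the member regions, as E-box CACGTG, a variant E-box CACGTT, D-box TTATGTAA with the variants TTATGCAA and TTACGTAA, and the RORE half-site TAGGTCA. The E-box was found in 18 of the 33 member regions, which is 54.5%, against 17.3% of all 55680 regions. Member regions are longer than most, and over regions within 10% of each member's length the mean share with an E-box was 23.55%. The D-box was found in 5 member regions, which is 15.2%, against a mean of 5.09% at like length. For the RORE half-site the shares were close, with 15.2% of member regions and 13.9% at like length. Of the variants, CACGTT was found in 10 member regions (30.3%, against 20.7% at like length), TTATGCAA in 2 (6.06%, against 4.36%) and TTACGTAA in 0 of 33, where 0.619% of regions of like length hold it.

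The sites below lie in the regions on which the age comparison turns, together with E-boxes near the start of Ciart, Bhlhe40 and Bhlhe41. Each is printed as 30 bases of GRCm38 on the strand of its gene, 5′ to 3′, with the match in capitals. The palindromic E-box reads the same on both strands, TTACATAA is the D-box on the opposite strand, and TGACCTA is the RORE half-site on the opposite strand. A match describes the sequence and says nothing of whether a factor is bound.
Nfil3 promoter region, chr13:52981722-52981751, - strand, E-box: ccgccacctctcCACGTGgtcggggacaca
Nfil3 promoter region, chr13:52981034-52981063, - strand, RORE half-site: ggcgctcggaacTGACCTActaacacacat
Nfil3 promoter region, chr13:52980694-52980723, - strand, D-box: cggggcatgcaTTACATAAacttttgctgc
Nfil3 intron region, chr13:52976788-52976817, - strand, RORE half-site: gagatttctagcTGACCTAgccgtgatcat
Bhlhe41 exon region, chr6:145863787-145863816, - strand, E-box: cagcgcagggccCACGTGatgagcagatgt
Bhlhe41 promoter region, chr6:145865556-145865585, - strand, E-box: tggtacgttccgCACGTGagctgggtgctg
Dbp second region, chr7:45707700-45707729, + strand, E-box: acattccctcgcCACGTGagtccgccttcc
Dbp second region, chr7:45707813-45707842, + strand, E-box: agctgtaggccaCACGTGatgcggccctga
Tef promoter region, chr15:81811264-81811293, + strand, E-box: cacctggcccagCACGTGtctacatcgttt
Bhlhe40 promoter region, chr6:108660360-108660389, + strand, E-box: agcgttgtccaaCACGTGaggctcatgtga
Ciart promoter region, chr3:95882255-95882284, - strand, E-box: cgtgcagaaccgCACGTGtctgggaggggg
Ciart promoter region, chr3:95882327-95882356, - strand, E-box: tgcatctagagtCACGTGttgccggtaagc

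The promoter region of Ciart held 4 E-boxes, with the nearest centred 19 bp before the gene start, and 24.8% of regions of like length held at least 1. The E-box of Bhlhe41 that is nearest to its start was centred 13 bp before it. In the promoters listed by RefSeq, which cover 250 bases before and 50 after a gene start on GRCm38.p6, 7 entries matched Dbp, Tef (2 entries), Hlf, Nfil3, Bhlhe41 and Ciart. An E-box was found in 4 of these 7, at Bhlhe41, Ciart and both starts of Tef, against 7.15% of all 32851 promoters. The RORE half-site was found in 1 of 7, that of Nfil3, centred 25 bp after the gene start, against 2.61% of all promoters.

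Counts in regions summed to between 5709327 and 25461110 in young and between 4474652 and 11717992 in aged libraries, and single member regions held 21 to 6732 counts per library. Levels are given as read counts scaled to the library size (CPM) after TMM normalization, and differences as log2 fold changes of aged against young with their standard error (SE), from edgeR's quasi-likelihood test with Benjamini-Hochberg adjustment over all 55680 regions. A region counts as called when its adjusted p was under 0.05. Among all regions 1360 were called more and 1838 less accessible in aged liver. This split moved with the tool and scaling, to 2760 more and 1931 less with DESeq2, 543 more among 3474 calls with scaling by total counts, 3453 among 5518 with offsets on GC content and 272 among 839 with offsets on mean abundance. The median change ran from -0.35 in the weakest to 0.28 in the strongest of 10 classes of regions ranked by abundance, so that each member is also read against regions of its own strength.

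The liver label was checked with promoter regions of marker genes. All 8 hepatocyte genes had one, and their summed level was 690 to 790 CPM in young and 862 to 981 CPM in aged libraries. Of the other cells, 3 of 5 endothelial genes (59.4 to 65.4 CPM in young, 48.4 to 80.7 in aged), 2 of 4 cholangiocyte genes (41.7 to 49.5 and 36.7 to 54.3), 2 of 5 stellate genes (20.9 to 24.0 and 11.9 to 19.0), 1 of 6 Kupffer cell genes (2.22 to 2.65 and 0.588 to 2.80) and 0 of 5 lymphocyte genes had a promoter region. Of 4 genes not expected in liver 1 had a region, at 1.67 to 3.95 CPM in young and 1.53 to 1.87 in aged. The hepatocyte sum was thus higher and the stellate sum lower in every aged library. Of the 8 hepatocyte promoters edgeR called 1 more accessible, that of Apoa1, DESeq2 called 3 and 5 were higher at an unadjusted p under 0.05, with 4 of the 8 above the median of regions of like strength. For all 15422 promoter regions the shares were 4.48%, 10% and 23.0%. Of the markers of other cells 0 were called by either tool, while 1 stellate and 1 cholangiocyte promoter were lower at an unadjusted p under 0.05, where 2.06% of promoter regions were called less accessible by edgeR, 2.22% by DESeq2 and 9.13% were lower at that p. In bulk tissue fewer cells of a type and less accessibility per cell cannot be told apart, and the part of these markers in the changes that follow was not tested.

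Of the 33 member regions, 2 were called more accessible in aged liver, both at Nfil3, and 1 less accessible, at Bhlhe41. Over all regions 2.44% were called more and 3.3% less accessible, and over the 15422 regions at a transcription start 4.48% were called more and 2.06% less. At an unadjusted p under 0.05, 5 member regions were higher and 6 lower, where 11.9% of all regions were higher and 12.7% lower. DESeq2 called 3 member regions more and 1 less accessible, where it called 4.96% and 3.47% of all regions. Scaling by total counts gave 1 and 2, offsets on GC content 3 and 1, and offsets on mean abundance 0 and 2. Every aged library lay above every young one in 4 member regions and below in 4, where 10.2% and 11.6% of all regions do so. The change was above 0 in 13 member regions and below 0 in 20, where 46.6% of all regions lay above 0. The member median was -0.11 against -0.035 over all regions. This median was above 0 without aged replicate 1 (0.0028) or aged replicate 4 (0.054). The change was above 0 in 6 of the 11 regions at a member's own transcription start, with a median of 0.076, where 61.1% of all promoter regions lay above 0 and their median was 0.094. It was above 0 in 3 of the 12 inside a member gene that lie at no transcription start, with a median of -0.12, where 41.0% of all other regions lay above 0 and their median was -0.091. The remaining regions were 6 outside the member genes, of which 3 were above 0, and 4 at the start of another gene, of which 1 was above 0 and which include the called region inside Bhlhe41.

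**Figure D1:**
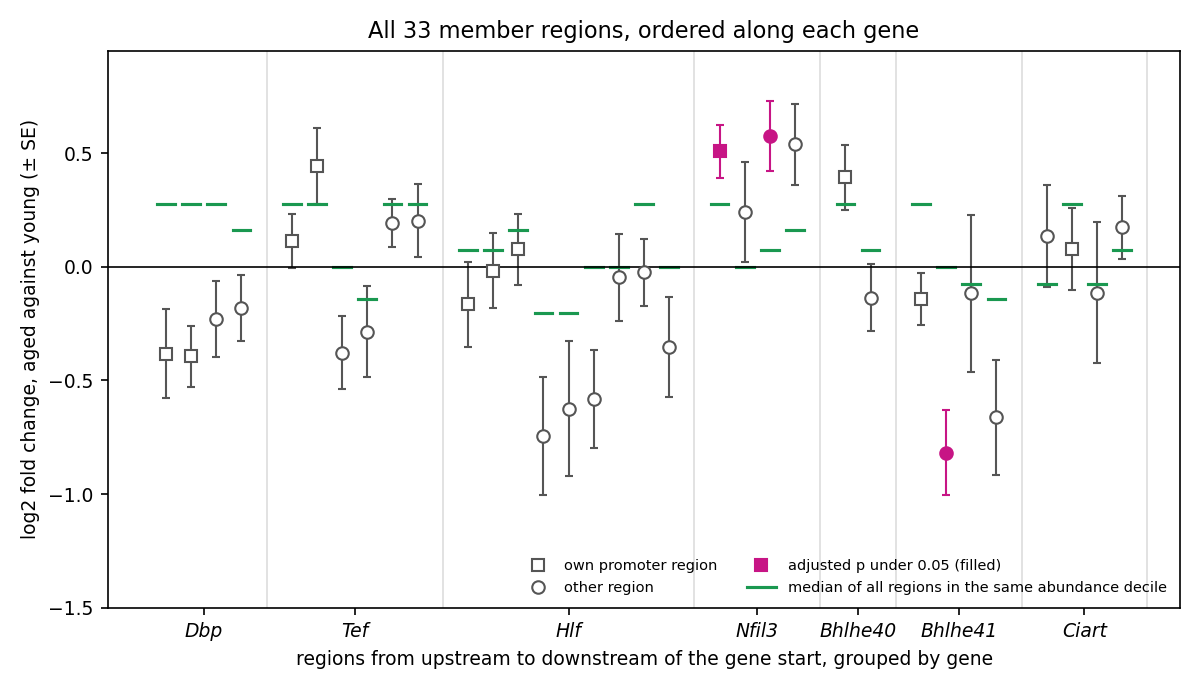
Log2 fold change of accessibility, aged against young, with its SE, for each of the 33 member regions, grouped by gene and ordered from upstream to downstream of the gene start. Squares are own promoter regions, circles other regions, filled magenta symbols have an adjusted p under 0.05 and green bars give the median of all regions of the same strength. The 4 regions of Nfil3 lie above 0, and the 4 of Dbp and the 4 of Bhlhe41 below 0.

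All 4 regions of Dbp, the activator of the PAR bZIP family best known as a clock output, had changes below the median of regions of like strength, although none was called. Its promoter region (chr7:45703910-45706144, around the starts of its transcripts and reaching Car11) had 107.7, 108.0 and 75.0 CPM in young replicates 1 to 3 and 53.9, 108.7, 70.3 and 67.8 CPM in aged replicates 1 to 4. Aged replicate 2 lay at the top of the young range and aged replicate 1 far below it, so that the ages overlapped. The log2 fold change was -0.38 (SE 0.20, edgeR adjusted p = 0.25). The spread within ages was larger than in 96.8% of regions of like strength.

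The second region of Dbp (chr7:45706598-45708727), inside the gene and at the start of a shorter transcript, holds the pair of E-boxes printed above. It had 81.3, 78.0 and 74.8 CPM in young and 46.0, 71.6, 58.6 and 62.6 CPM in aged liver. Here every aged library lay below every young one, with a log2 fold change of -0.39 (SE 0.13, edgeR adjusted p = 0.093). Regions of its strength had a median of 0.28. The other 2 regions in the window of Dbp lie at the starts of Rpl18 and Sphk2, a ribosomal protein gene and a sphingosine kinase gene, and had values of -0.23 and -0.18 (adjusted p = 0.43 and 0.48).

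None of the 4 Dbp regions was called by edgeR or DESeq2, and 1 was lower at an unadjusted p under 0.05, where 12.7% of all regions were. Single libraries moved these values in both directions. Without aged replicate 2 the promoter had -0.61 (edgeR adjusted p = 0.043) and the second region -0.49 (adjusted p = 0.047), and both were called. The same fit called 2898 of all 55680 regions. Without aged replicate 1 the promoter had -0.24 (adjusted p = 0.51) and the second region -0.28 (adjusted p = 0.23). The second region was also called with aged replicates 2 and 4 summed (-0.46, adjusted p = 0.042), with total counts (-0.51, adjusted p = 0.036) and with offsets on mean abundance (-0.66, adjusted p = 0.035). Young replicate 3 was the lowest young library in all 4 Dbp regions, aged replicate 2 the highest aged one in 3 and aged replicate 1 the lowest in 3.

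Tef has several transcription starts. The region at its first start (chr15:81802095-81803382, shared with Gm17597) had a log2 fold change of 0.11 (SE 0.12, edgeR adjusted p = 0.59). The region at an internal start (chr15:81810046-81812270) was its strongest, with 139.1, 140.3 and 87.5 CPM in young and 157.6, 143.8, 159.2 and 207.5 CPM in aged liver. Every aged library lay above every young one, and aged replicate 2 stood next to young replicates 1 and 2. The change of 0.44 (SE 0.17) did not pass the test (edgeR adjusted p = 0.12), and regions of its strength had a median of 0.28. It was 0.27 without young replicate 3 and 0.072 with offsets on mean abundance.

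Along the Tef locus the values went both ways. An intron region (chr15:81822255-81823141) had 17.5, 16.3 and 18.7 CPM in young and 13.4, 12.7, 11.7 and 15.5 CPM in aged liver, with every aged library lower and a change of -0.38 (SE 0.16, adjusted p = 0.16). Downstream of the gene, a region at chr15:81831022-81831969 had every aged library higher by a small step, with 0.19 (SE 0.11, adjusted p = 0.28). None of the 6 Tef regions was called by edgeR or DESeq2, and 1 in each direction had an unadjusted p under 0.05, near the 11.9% higher and 12.7% lower among all regions.

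Hlf had the most regions, 9 along a gene of 54360 bp, and 8 of them had changes below 0. Some were close to 0, and DESeq2 put those at chr11:90354973-90358634 (edgeR -0.024, DESeq2 0.0092) and chr11:90387244-90389315 (-0.017, 0.015) above it. At the strongest start region of Hlf (chr11:90381800-90382990), an internal start, the 26.7, 29.9 and 21.9 CPM in young and 25.6, 24.9, 35.3 and 26.3 CPM in aged liver overlapped. Aged replicate 3 stood above the other libraries, and the change was 0.076 (SE 0.16, edgeR adjusted p = 0.81). It took the opposite sign without aged replicate 3 (-0.041) and with total counts (-0.041). The first start of Hlf (chr11:90389544-90391044) had -0.17 (SE 0.19, adjusted p = 0.62).

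The smallest p at Hlf was that of a short intron region (chr11:90380179-90380553), with 5.83, 8.09 and 8.39 CPM in young and 4.66, 5.49, 4.90 and 2.93 CPM in aged liver. Every aged library was lower, and the change was -0.74 (SE 0.26, adjusted p = 0.099) against a median of -0.20 in regions of its strength. This was among the weakest member regions, with as few as 21 counts in a library. None of the 9 Hlf regions was called by edgeR or DESeq2, and 2 were lower at an unadjusted p under 0.05, where 12.7% of all regions were.

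Nfil3, which encodes the repressor of the D-box, was the gene with called increases. Its promoter region (chr13:52980264-52982535, over the gene start and the 5′ UTR) had 70.8, 76.7 and 70.5 CPM in young and 104.4, 85.9, 112.3 and 111.2 CPM in aged liver. The young libraries lay close together, and the lowest aged one, replicate 2, was above them all. The log2 fold change was 0.51 (SE 0.12, edgeR adjusted p = 0.027), which is 0.23 above the median of regions of its strength. The E-box, the RORE half-site and the D-box printed above all lie in this region.

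An intron region of Nfil3 (chr13:52976424-52977351) had 15.3, 18.9 and 21.9 CPM in young and 28.1, 24.1, 30.8 and 27.6 CPM in aged liver. The ages did not overlap, and the change of 0.57 (SE 0.15) was called (edgeR adjusted p = 0.044). It was 0.50 above the median of regions of its strength. The region holds the RORE half-site printed above.

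The other 2 intron regions of Nfil3 also had values above 0. That furthest into the gene (chr13:52974536-52975795) had 20.9, 23.7 and 27.0 CPM in young and 36.3, 22.6, 39.7 and 38.9 CPM in aged liver. Aged replicate 2 fell among the young libraries here while the other 3 aged libraries lay above them. The change was 0.54 (SE 0.18, edgeR adjusted p = 0.084), and DESeq2 called it (adjusted p = 0.0497). The last, at chr13:52978206-52978742, had 0.24 (SE 0.22, edgeR adjusted p = 0.54).

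Summed over its window of 4 regions, Nfil3 had 117.6, 134.4 and 142.1 CPM in young and 185.7, 152.8, 204.5 and 194.3 CPM in aged liver. This was a change of 0.49 (SE 0.11, edgeR adjusted p = 0.030 over 16231 protein-coding genes). It was the 1 window called among the 7 genes, where 6.1% of all gene windows were called more and 3.27% less accessible. The DESeq2 values were 0.54 (adjusted p = 0.0027) for the promoter and 0.61 (adjusted p = 0.013) for the called intron region.

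The calls at Nfil3 depended on single libraries, on the scaling and on which aged libraries were summed as 1 animal. Without young replicate 1, young replicate 2, aged replicate 1 or aged replicate 3 the promoter kept a change of 0.47 to 0.55 with edgeR adjusted p of 0.078 to 0.099, the called intron region had 0.46 to 0.59 with 0.11 to 0.17, and the window had 0.42 to 0.51 with 0.074 to 0.088. The same 4 fits called 188 to 651 of all regions in place of 3198. With offsets on mean abundance, which take out the part that follows a region's strength, the promoter had 0.20 (adjusted p = 0.32), the intron region 0.49 (adjusted p = 0.12) and the window 0.31 (adjusted p = 0.13). With total counts the intron region (adjusted p = 0.093) and the window (adjusted p = 0.0525) were not called, and with at least 10 counts in every library the intron region was not (adjusted p = 0.063). When 2 aged libraries were summed, as for lobules of 1 animal, the intron region lost its call in 5 of the 6 pairs (adjusted p = 0.052 to 0.10), and the promoter and the window lost theirs with aged 1 and 3 (0.074 and 0.078) or 3 and 4 (0.054 and 0.058).

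**Figure D2:**
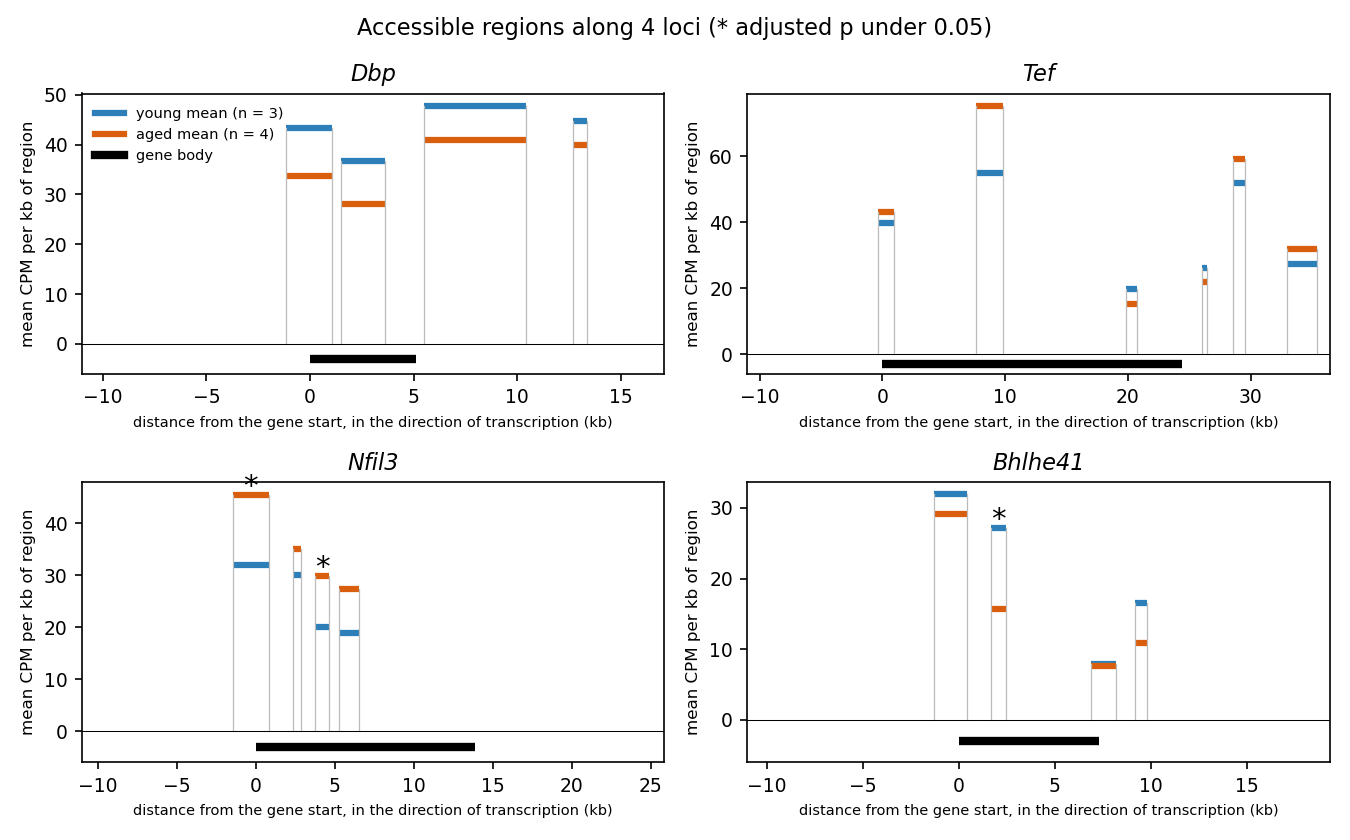
Mean accessibility in CPM per kb of region at Dbp, Tef, Nfil3 and Bhlhe41 against the distance from the gene start in kb, in the direction of transcription. Blue bars are the young means (n = 3), orange bars the aged means (n = 4), the black bar is the gene body and asterisks mark an adjusted p under 0.05. At Nfil3 the aged mean lies above the young mean in all 4 regions, at Dbp and Bhlhe41 below it in all 4, and at Tef the sign differs between regions.

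Bhlhe40 had 2 regions. The long one at its promoter (chr6:108658336-108661679), which also covers the start of the uncharacterised gene 0610040F04Rik, had 145.9, 139.5 and 102.6 CPM in young and 158.2, 144.7, 184.4 and 194.0 CPM in aged liver. Aged replicate 2 lay just under young replicate 1, so that the ages overlapped by 1 pair of libraries. The change was 0.39 (SE 0.14, edgeR adjusted p = 0.11), against a median of 0.28 in regions of its strength. It was 0.013 with offsets on mean abundance, and it was called with offsets on GC content (0.38, adjusted p = 0.046). The region behind the gene (chr6:108667111-108668834) had -0.14 (SE 0.15, adjusted p = 0.61). Neither was called by edgeR or DESeq2, and 1, the promoter, was higher at an unadjusted p under 0.05, where 11.9% of all regions and 23.0% of promoter regions were.

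Bhlhe41, the close relative of Bhlhe40, held the called decrease. The region lies inside the gene, over coding exon and UTR and centred 2055 bp after its start (chr6:145863104-145863902), and it covers the start of Gm43909 as well. It had 18.7, 23.7 and 22.7 CPM in young and 10.5, 16.5, 12.8 and 10.3 CPM in aged liver. Every aged library lay below every young one, with aged replicate 2 nearest to them. The change was -0.82 (SE 0.19, edgeR adjusted p = 0.026), where regions of its strength had a median near 0. DESeq2 gave -0.79 (adjusted p = 0.0066).

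The promoter region of Bhlhe41 (chr6:145865109-145866854) had 53.9, 61.1 and 52.3 CPM in young and 45.8, 53.5, 54.4 and 49.8 CPM in aged liver. The ages overlapped and the change was -0.14 (SE 0.11, adjusted p = 0.47). A region behind the gene (chr6:145855736-145856384) that holds 3 E-boxes had -0.66 (SE 0.25, adjusted p = 0.12). The region at the 3′ end of the gene (chr6:145857390-145858685) had -0.12 (SE 0.35, adjusted p = 0.87), with aged replicate 2 at 19.2 CPM and the other aged libraries at 6.11 to 8.17. The call of the exon region was lost without any 1 of young replicates 1 to 3 or aged replicates 1 and 3, when the change was -0.91 to -0.73 and the edgeR adjusted p 0.055 to 0.10. It was also lost with aged replicates 1 and 3 summed (-0.81, adjusted p = 0.063), and it held with the other 5 sums, with offsets on mean abundance and with total counts.

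Ciart had no called region. Its promoter region (chr3:95881785-95883263), with the E-boxes printed above, had 54.5, 57.4 and 31.9 CPM in young and 45.5, 63.3, 45.8 and 51.0 CPM in aged liver. The ages overlapped widely, with young replicate 3 lowest and aged replicate 2 highest, and the change was 0.079 (SE 0.18, edgeR adjusted p = 0.83). Its sign depended on both libraries, at -0.12 without young replicate 3 and -0.033 without aged replicate 2. The smallest p among its regions was at the start of Mrps21, a mitochondrial ribosomal protein gene, and of C920021L13Rik (chr3:95871007-95872336), which had 23.4, 24.0 and 22.5 CPM in young and 25.4, 29.6, 28.9 and 22.0 CPM in aged liver. There the change was 0.17 (SE 0.14, adjusted p = 0.48). None of the 4 Ciart regions was called by edgeR or DESeq2, and 0 had an unadjusted p under 0.05, where 11.9% of all regions were higher and 12.7% lower at that p.

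**Figure D3:**
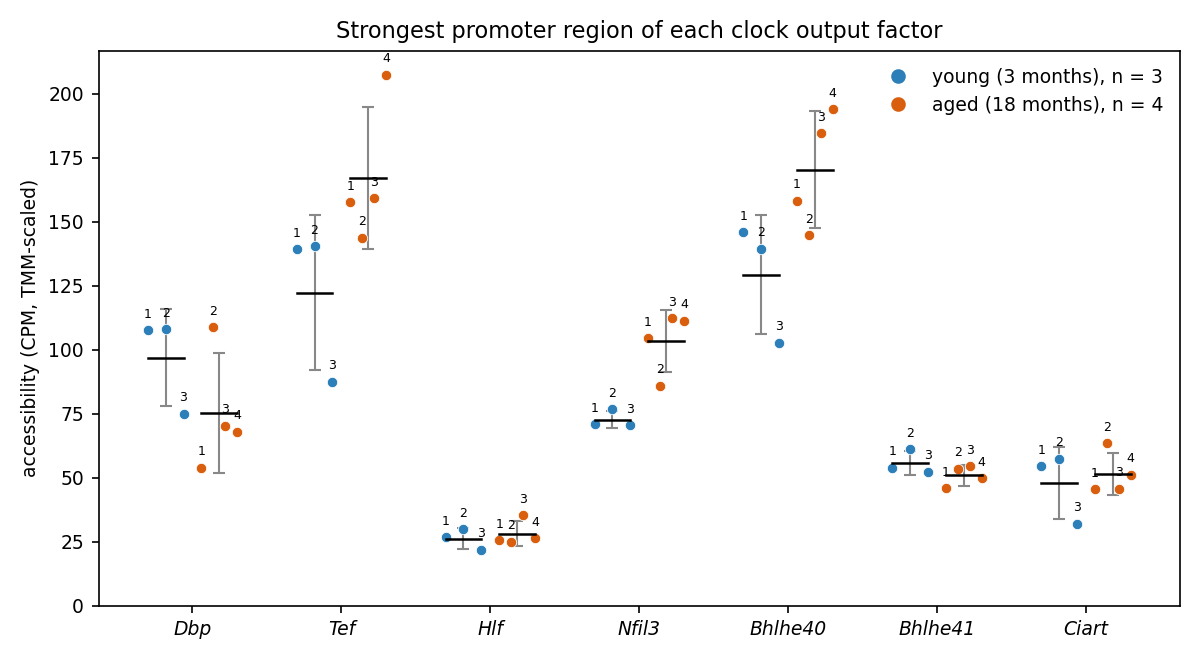
Accessibility of the strongest promoter region of each gene in CPM, with 1 point per library (blue young, orange aged, numbered by replicate), black bars for the mean and grey bars for the SD. At Nfil3 and Tef every aged point lies above every young one, while at Dbp, Hlf, Bhlhe40, Bhlhe41 and Ciart the ages overlap.

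Set side by side per length, the promoter regions had a different order at the 2 ages. In young liver the level per kb was highest at Tef, with 55.0 ± 13.6 CPM per kb (SD, n = 3), followed by Dbp with 43.3 ± 8.48, Bhlhe40 with 38.7 ± 6.98, Ciart with 32.4 ± 9.45, Nfil3 with 32.0 ± 1.54, Bhlhe41 with 31.9 ± 2.68 and Hlf with 21.9 ± 3.38. Of the neighbours in this order, Bhlhe41 and Hlf alone were further apart than either SD. In aged liver Tef had 75.1 ± 12.5 CPM per kb (SD, n = 4), Bhlhe40 50.9 ± 6.82, Nfil3 45.5 ± 5.38, Ciart 34.8 ± 5.65, Dbp 33.6 ± 10.5, Bhlhe41 29.1 ± 2.26 and Hlf 23.5 ± 4.08. Here the steps from Tef to Bhlhe40, from Nfil3 to Ciart and from Bhlhe41 to Hlf were larger than either SD. Dbp stood above Nfil3 in young and below it in aged liver, and this change of places was not tested.

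The summed windows gave 1 value per gene. The log2 fold changes after Nfil3 were 0.32 for Bhlhe40 (SE 0.13, edgeR adjusted p = 0.11), 0.25 for Tef (SE 0.11, adjusted p = 0.12), 0.094 for Ciart (adjusted p = 0.67), -0.11 for Hlf (adjusted p = 0.58), -0.28 for Dbp (SE 0.16, adjusted p = 0.24) and -0.31 for Bhlhe41 (SE 0.13, adjusted p = 0.13). The median over all gene windows was 0.081, and 62.6% of them lay above 0. Every aged library lay above every young one at Nfil3 and at Bhlhe40, where the sums were 170.4, 170.8 and 127.9 CPM in young and 178.6, 171.6, 210.6 and 220.3 CPM in aged liver. The share of all gene windows in which the ages do not overlap was not computed. Within the PAR bZIP family the activators had window values on both sides of 0, and so had the DEC pair. The window of Dbp averaged 439 CPM in young liver, of which 234 CPM came from a region at the starts of Rpl18 and Sphk2. Over the gene body of Dbp alone the change was -0.38 (edgeR adjusted p = 0.125). Without aged replicate 2 the windows of Dbp (-0.44, adjusted p = 0.049) and Bhlhe41 (-0.42, adjusted p = 0.039) were called as well, and without aged replicate 1 they were -0.17 (adjusted p = 0.48) and -0.23 (adjusted p = 0.29). The share of all gene windows called in these fits was not computed.

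**Figure D4:**
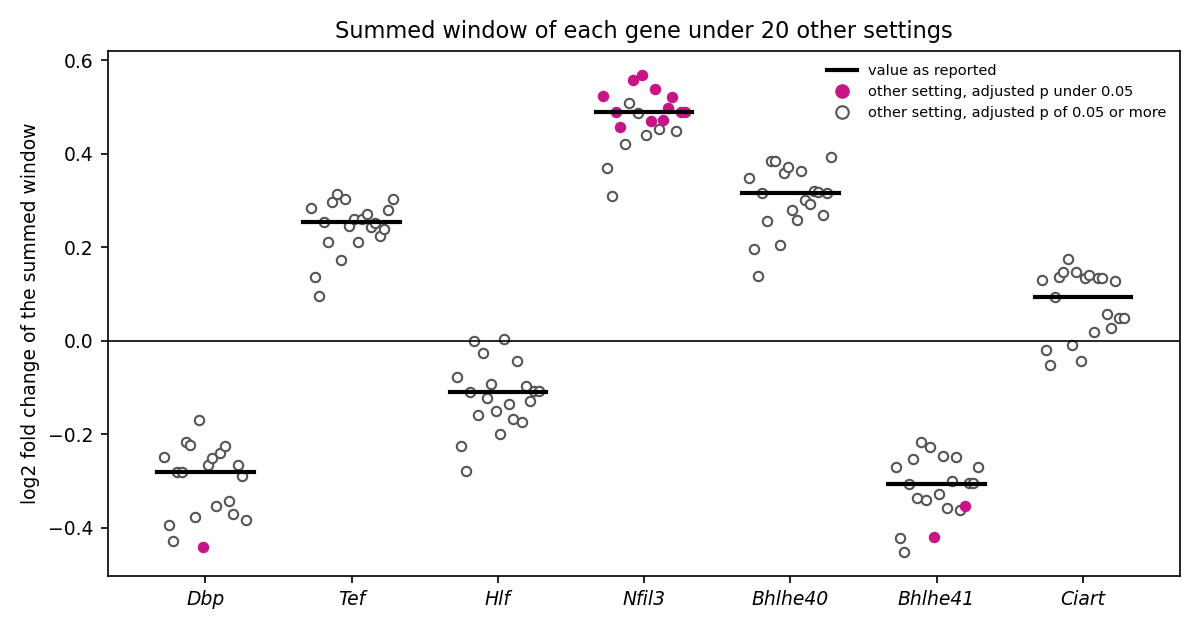
Log2 fold change of the counts summed over the window of each gene, as reported (black line) and under 20 other settings (points, filled magenta where the adjusted p is under 0.05). Nfil3 stays between 0.31 and 0.57 and passes in 12 of the 20, while Hlf and Ciart cross 0.

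Libraries of 1 age did not vary alike over the members. Young replicate 3 was the lowest young library in 20 of the 33 member regions, which is 60.6%, against 39.4% of all regions. Aged replicate 2 was the highest aged library in 18, which is 54.5%, against 27.2% of all regions. At Ciart aged replicate 2 was the highest in 4 of 4 regions and at Nfil3 in 0 of 4. Neighbouring regions share their gene, so that these counts are not of independent regions.

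The promoter regions outside the windows whose log2 CPM followed each member's most closely over the 7 libraries, among 15407, are given as a description. For Dbp this was Kptn (Pearson r = 0.98), for Tef Klf13 (0.99), for Hlf Gys2 (0.98), for Bhlhe40 Usp9x (0.996), for Bhlhe41 Abca9 (0.97) and for Ciart Cpsf3 (0.95). For Nfil3 it was the promoter shared by Gm21691 and Hacd2, followed by Arnt (0.99 each). The 7 points are libraries of 2 ages that share the scaling.

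The remaining genes of the clock were read at their strongest promoter region. All 12 genes of the core loop had one, and 0 were called by edgeR, where 4.48% of all promoter regions were called more and 2.06% less accessible. At an unadjusted p under 0.05, 8 were higher, where 23.0% of all promoter regions were. DESeq2 called 2 more accessible, where it called 10%. The changes of the 12 ran from -0.02 to 0.63 with a median of 0.31, above 0 in 11 of 12. These are strong regions, and the median of regions of like strength was 0.28, which 6 of the 12 exceeded, while promoter regions as a whole had a median of 0.094. The Arntl promoter, of the gene for BMAL1, averaged 53.2 CPM over the young libraries (SD 11.9, n = 3) and 78.8 CPM over the aged ones (SD 21.2, n = 4), with a log2 fold change of 0.56 (edgeR adjusted p = 0.099). Nr1d1, which encodes REV-ERBα, had 0.43 (adjusted p = 0.075), Rora, which encodes an activator at the RORE, 0.35 (adjusted p = 0.058) and Per3 -0.02 (adjusted p = 0.96).

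Of 16 genes known as targets of the PAR bZIP factors or as other outputs of the liver clock, 15 had a promoter region. Of these 1 was called more accessible and 0 less, with DESeq2 calling 2 more and 0 less and edgeR giving 5 higher and 0 lower at an unadjusted p under 0.05. Over all promoter regions 4.48% were called more accessible by edgeR and 10% by DESeq2, and 23.0% were higher at that p. The median was 0.16, with 12 of 15 above 0, and regions of like strength had 0.28, which 6 of the 15 exceeded. The called promoter was that of Por, the electron donor of the microsomal cytochromes P450, which averaged 112 CPM over the young libraries (SD 14.8, n = 3) and 161 CPM over the aged ones (SD 7.17, n = 4), a log2 fold change of 0.52 (edgeR adjusted p = 0.024). Cyp7a1, the rate-limiting enzyme of bile acid synthesis, had 0.32 (adjusted p = 0.49), and Alas1, which starts heme synthesis, 0.16 (adjusted p = 0.65). Below 0 were Cyp2a5 (-0.34, adjusted p = 0.53), Tspan4 (-0.13, adjusted p = 0.58) and Ces2a (-0.11, adjusted p = 0.74).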

How the data were processed

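ATAC-seq was measured in 3 young and 4 aged liver samples. The authors deposited raw counts per consensus region. Per the paper's methods and the submitters' processing notes, they trimmed reads with cutadapt 1.13, aligned them to GRCm38 with Bowtie2 2.4.1, kept a mapping quality over 10, discarded mitochondrial reads and PCR duplicates, called peaks per library with MACS2 2.2.7 and counted reads with featureCounts in regions found in at least 2 libraries. A region's count thus grows with its length and the library's depth. The 7 columns matched the samples by name. The chi-square per degree of freedom of the 9 pairs of the same age was 2.38 to 6.06, above sampling noise, so no pair held the same library. This does not tell lobules of 1 animal from separate animals.

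Regions were tested with edgeR 4.0.16 in R 4.3.3 (TMM, quasi-likelihood, age only), fitted on all regions and again on counts summed per protein-coding gene and 10 kb either side. Promoter regions overlapped 200 bp either side of a GENCODE M21 start. Named were, for each gene, the promoter region of highest mean CPM, the region of smallest p and every called region, and the 3 promoters most like each. Other regions are given where they complete a locus, and were chosen after their values were seen. Alternatives were DESeq2 1.42.0 (the study's tool), total counts, loess offsets (span 0.3) on abundance or GC content, at least 10 counts in every library, leaving out each library, summing each of the 6 pairs of aged libraries, a replicate block, a threshold of 0.01 and windows of 2 kb, with gene bodies for the summed windows added after seeing the data. No member region had a near-identical copy (80% of its length at 95% identity, minimap2 2.31). The members and lists were chosen with earlier results of these data known. Other assays of the study were not analysed here.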

Additional observations from a re-analysis of the deposited data

Results flagged for a closer look

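In 2 of 19 sets of aged values tested (12 named regions and 7 summed windows), 1 library stood apart from the other 3 by Dixon's test, which chance gives in about 1 of 20 sets. In the promoter region of Hlf the highest aged library, replicate 3, had 35.3 CPM, while the other aged libraries had 24.9 to 26.3. In the summed window of Ciart the highest aged library, replicate 2, had 125.3 CPM, while the other 3 had 87.9, 89.2 and 89.5.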

How the results depend on the processing

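The counts of calls were small. The count of regions more accessible fell in 13 of 22 settings and rose to 3 in others. The count of regions less accessible changed in 11 of 22 settings and that of windows in 10 of 20. The 2 member regions called more accessible became 1 with total counts, with a minimum of 10 counts in every library, with the replicate block and with aged 1 and 4 or 2 and 3 summed, and 0 with offsets on mean abundance, with aged 1 and 3 or 3 and 4 summed and at a threshold of 0.01, while it was 3 with DESeq2, with offsets on GC content and with aged 2 and 4 summed. The 1 called less accessible became 2 with total counts, with offsets on mean abundance and with aged 2 and 4 summed, and 0 with aged 1 and 3 summed and at 0.01. The 1 called window became 0 with total counts, with offsets on mean abundance and with aged 1 and 3 or 3 and 4 summed, and 2 with aged 2 and 4 summed. Leaving out 1 library gave 0 to 3 for each of these counts. The calls of the whole table, 3198 in the fit as reported, were 188 to 4230 with 1 library left out and 962 to 4742 with 2 aged libraries summed, and the cause of these moves was not tested.

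The replicate numbers did not pair the samples, since the correlations of same-numbered deviations were -0.12, 0.057 and 0.030. With the replicate block 1 region was called more accessible, 1 less and 1 window, the Nfil3 promoter had 0.46 (edgeR adjusted p = 0.057), and 4078 regions were called in the whole table. Young replicate 1 deviated most like aged replicate 4 (0.23).

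Over their alternatives the adjusted p was 0.0027 to 0.32 for the Nfil3 promoter (under 0.05 in 11 of 19), 0.013 to 0.17 for its intron region (7 of 19), 0.0066 to 0.10 for the Bhlhe41 exon region (13 of 19) and 0.00061 to 0.13 for the Nfil3 window (12 of 20), and in all of them the sign was kept. With total counts the median of all regions moved from -0.035 to -0.15, and the Hlf promoter (-0.041), the Ciart promoter (-0.034) and the Ciart window (-0.020) changed sign. With offsets on mean abundance these were -0.037, -0.13 and -0.052. Leaving out 1 library in turn gave -0.041 to 0.19 for the Hlf promoter (below 0 without aged 3 or young 3), -0.12 to 0.23 for the Ciart promoter (below 0 without young 3 or aged 2), -0.20 to 0.0027 for the Hlf window (above 0 without aged 4) and -0.043 to 0.18 for the Ciart window (below 0 without young 3 or aged 2). The median over the 33 member regions was also above 0 with the replicate block (0.019), without aged replicate 1 (0.0028) or 4 (0.054) and with both summed (0.012). Depth limits the weak intron regions, some with under 50 counts in a library.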
